A study of Homo sapiens with 30 samples.

Results

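A set of 6 genes of the double-stranded RNA binding group, TARBP2, PRKRA, STAU1, STAU2, STRBP and ILF2, held 343 of the 382978 sites in a table of A-to-G changes from HEK 293T cells, which derive from human embryonic kidney. The sites were all those lying in exons of these genes in GENCODE release 29 on GRCh38, which gave 115 in STAU1, 79 in ILF2, 67 in TARBP2, 42 in STRBP, 31 in PRKRA and 9 in STAU2. The genes lie at chr20:49113339-49188367 (STAU1), chr1:153661788-153671048 (ILF2), chr12:53500921-53506431 (TARBP2), chr9:123109500-123268576 (STRBP), chr2:178431414-178451512 (PRKRA) and chr8:73420369-73747708 (STAU2). The line was transfected with enzymes that deaminate adenosine to inosine, a base that sequencing reports as G, and poly(A) RNA was taken 60 h later. The 16 libraries of a factorial design carried a deaminase domain (DD) joined to MCP, a phage coat protein that recognises the MS2 hairpin. They covered every combination of 4 factors: the domain of ADAR1 or ADAR2; its wild type or a glutamate-to-glutamine form (E1008Q for ADAR1 and E488Q for ADAR2, both called E-to-Q); a nuclear export signal (NES) or a nuclear localisation signal (NLS); and an MS2 adRNA guide or none. Whole ADAR2 was expressed in 4 further libraries, as wild type and as E488Q, each once alone and once together with a GluR2 adRNA. The last 2 deaminase libraries held a fusion of Cas13b and the E488Q domain of ADAR2, without or with its gRNA. Cells given GFP, or the MS2 adRNA, the GluR2 adRNA or the gRNA alone, were 4 controls. The baseline came from 3 of the 4 sequencing runs of 1 untransfected library. Each deaminase condition was 1 library of transiently transfected cells, so a condition on its own carries no replicate error. The SDs are over libraries or over matched pairs of libraries. The values were shares of edited reads at each site. Read counts, expression levels and amounts of enzyme were not analysed here, so the depth behind a share is unknown and the cell line's own markers could not be checked.

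Proteins of this group bind duplex RNA through a small domain that reads the shape of the A-form helix rather than its sequence, and the ADAR enzymes carry the same kind of domain outside the deaminase domain used in the fusions. TARBP2 (TRBP) and PRKRA (PACT) are partners of Dicer in microRNA processing and act in opposite ways on the interferon-induced kinase PKR. STAU1 and STAU2, the Staufen proteins, bind hairpins in mRNA and act in mRNA transport, translation and decay. STRBP carries double-stranded RNA binding domains and is known from the testis, where it binds microtubules. ILF2 (NF45) works in complexes with proteins that bind double-stranded RNA and shares a dimerisation domain with STRBP, but has no double-stranded RNA binding domain of its own, so the group's name fits it only as a partner.

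The sites to which the results return are shown in their mRNA sequence from the GENCODE release 29 transcripts (GRCh38), with 10 bases to each side, 5′ to 3′, and the edited adenosine in capitals. The TARBP2 and PRKRA lines and the first 2 STAU1 lines had the highest shares in their genes, I168M was the STAU1 site called in most libraries, the STRBP lines show adjacent adenosines of 1 codon and a nearby tyrosine codon, and the ILF2 lines show the site called most often and a site edited more by ADAR2. TARBP2 lies on the plus strand and the other 4 genes on the minus strand, and STAU2 is described without sequence.
TARBP2 3′ UTR, chr12:53506300: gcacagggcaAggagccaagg
TARBP2 A342A, chr12:53506136: agatcatggcAggcagcaagt
PRKRA K88K, chr2:178447558: agctggcgaaAcatagagctg
PRKRA 3′ UTR, chr2:178431682: gacagcactaAcaggccttta
STAU1 3′ UTR, chr20:49113721: acgtttctgtAtacagctgtg
STAU1 Y24C, chr20:49153963: acctataactAcaacatgaga
STAU1 I168M, chr20:49124468: atgccgccatAgctgttcttg
STRBP K651E, chr9:123125665: tggtttacccAagagaatggt
STRBP K651R, chr9:123125664: ggtttacccaAgagaatggtt
STRBP Y640C, chr9:123128237: ccatatggttAcagcacagct
ILF2 L248L, chr1:153664043: ttgacctactAggccattatg
ILF2 R231G, chr1:153664096: gaaggacttgAggattcgttt

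Of the 343 sites, 233 were coding, 91 lay in 3′ UTRs and 19 in 5′ UTRs. Replacing A by G changed the encoded amino acid at 157 coding sites and left it the same at 75. The most frequent recoding was lysine to arginine, at 33 sites, followed by tyrosine to cysteine at 20, glutamine to arginine at 18 and serine to glycine at 17. No site lay in a start or stop codon. All but 1 of the 343 sites were adenosine on the mRNA strand. The exception, in codon 51 of ILF2 (chr1:153668513), had U there. Its share was 21.1% ± 2.44 (SD over 3 runs) in untransfected cells and 20.6% ± 1.95 (SD over 22 libraries) with a deaminase, and it was called in none of them. It was lower where a guide was given alone, at 9.36% with the MS2 adRNA, 10.2% with the GluR2 adRNA and 10.8% with the gRNA, against 23.5% with GFP. Exons of another annotated gene overlap 3 PRKRA sites and 1 STAU2 site, and the kit is not stated to keep strand, so reads there cannot be assigned to 1 gene with certainty. The annotated pseudogenes ILF2P1 and ILF2P2 held 0 listed sites.

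The genes differed in how densely their adenosines were listed. In the main transcript of each gene the list held 25.2% of the coding adenosines of TARBP2 and 20.1% of those of ILF2, but 9.83% in STAU1, 6.95% in PRKRA, 5.61% in STRBP and 1.65% in STAU2. STAU1 had 58 of its 115 sites in the 3′ UTR, which is 13.7% of the adenosines there. STRBP had only 3 of 1127 adenosines of its 3′ UTR listed (0.266%), and STAU2 had 0 of 303. How sites were selected for the list is not stated. All but 1 of the 343 sites were called in at least 1 deaminase library, and of all 382978 listed sites 115 were called in none. Calling depends on read depth, which is unknown. The lowest share at which a site was called also differed between the genes. It was 0.749% in ILF2, 2.45% in STAU1, 4.81% in TARBP2, 6.35% in STRBP, 8.03% in PRKRA and 11.8% in STAU2. These minima come from 367 calls in ILF2 and 31 in STAU2, and what depth adds to them was not tested. Levels of different genes describe listed sites rather than whole messages.

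**Figure D1:**
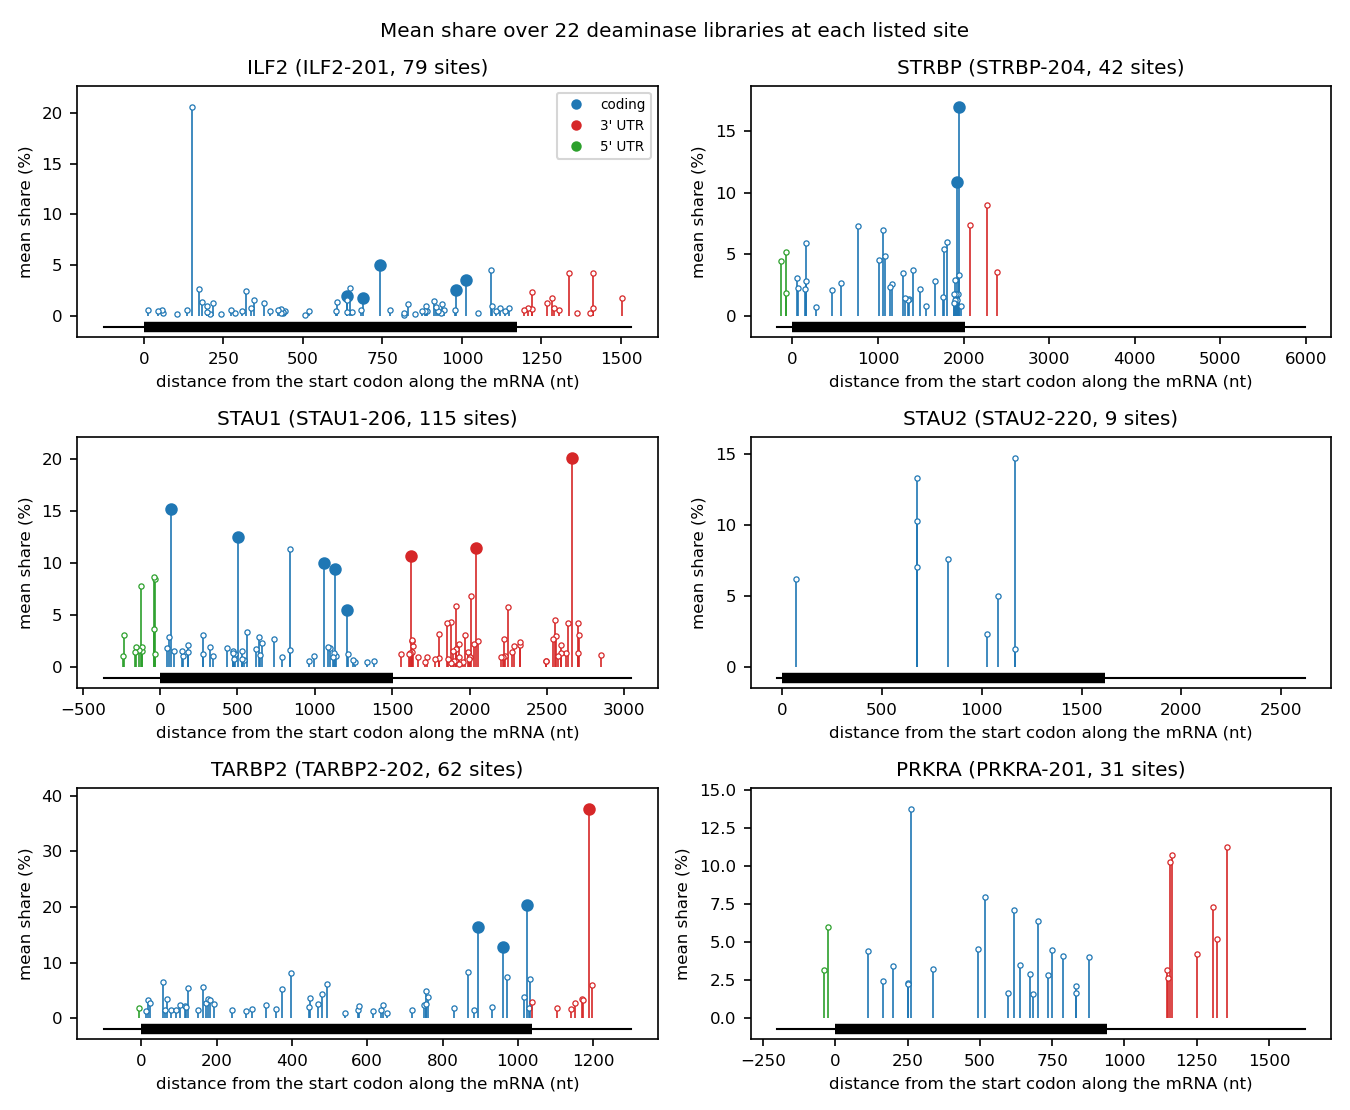
Mean share of edited reads over the 22 deaminase libraries (y axis, percent) at each listed site of the main transcript, against distance from the start codon in nucleotides (x axis); blue is coding, red 3′ UTR, green 5′ UTR, the thick bar is the coding sequence and filled points are sites called in at least 11 libraries. STRBP sites stop early in its long 3′ UTR, STAU1 sites run through its 3′ UTR, and the tallest ILF2 line is the site that is not an adenosine.

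A call required an adjusted p under 0.01 for that library in the authors' deposited table and a share above the mean of the untransfected runs. No site of the 6 genes was called in any of the 4 controls or the 3 untransfected runs, where the mean share per gene stayed between 0% and 0.403%. The highest of these were in ILF2, whose mean holds the codon 51 site; without it the untransfected runs of ILF2 were at 0.0957% ± 0.0116 (SD over 3 runs). Most sites were called in more than 1 but in fewer than 11 of the 22 deaminase libraries: 112 of 343 (32.7%) were called in exactly 1, against 36.5% of all listed sites, and 20 (5.83%) in at least 11, against 6.63%. These shares are close to the background and set the group apart in neither direction. The 20 widely called sites were 8 in STAU1, 5 in TARBP2, 5 in ILF2 and 2 in STRBP. PRKRA and STAU2 had 0, and their most widely called sites passed in 10 and 8 libraries. No site was called in all 22.

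Library by library, the count of called sites of the 6 genes moved with that of the whole table, whose percent called is given in brackets. With MCP-ADAR1 the percent of the 6 genes was above it, except in the nuclear wild type with guide, at 7.00% against 7.45%. With an ADAR2 domain it was below that of the whole table in every library. It was 65.6% in exported MCP-ADAR1 E1008Q without guide and 28.9% in full-length E488Q with the GluR2 adRNA. MCP-ADAR1 E1008Q with the NES called the most, 225 of 343 without the guide (background 59.2%) and 184 with it (51.1%). The same enzyme with the NLS called 100 without the guide (23.5%) and 122 with it (28.9%). Wild-type MCP-ADAR1 called 119 without and 103 with the guide when exported (30.3% and 26.4%), and 21 and 24 when nuclear (5.35% and 7.45%). MCP-ADAR2 called far fewer in these libraries. Its E488Q form called 24 without and 31 with the guide when exported (9.21% and 11.2%), and 24 and 27 when nuclear (7.32% and 9.94%). Its wild type called 6 and 11 when exported (2.48% and 5.29%), and 1 and 3 when nuclear (0.982% and 1.24%). Full-length ADAR2 called 0 sites without and 14 with the GluR2 adRNA (1.5% and 4.85%), and its E488Q form 15 and 99 (6.72% and 32.7%). The Cas13b fusion called 93 sites without its gRNA (29.5%) and 40 with it (12.9%).

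**Figure D2:**
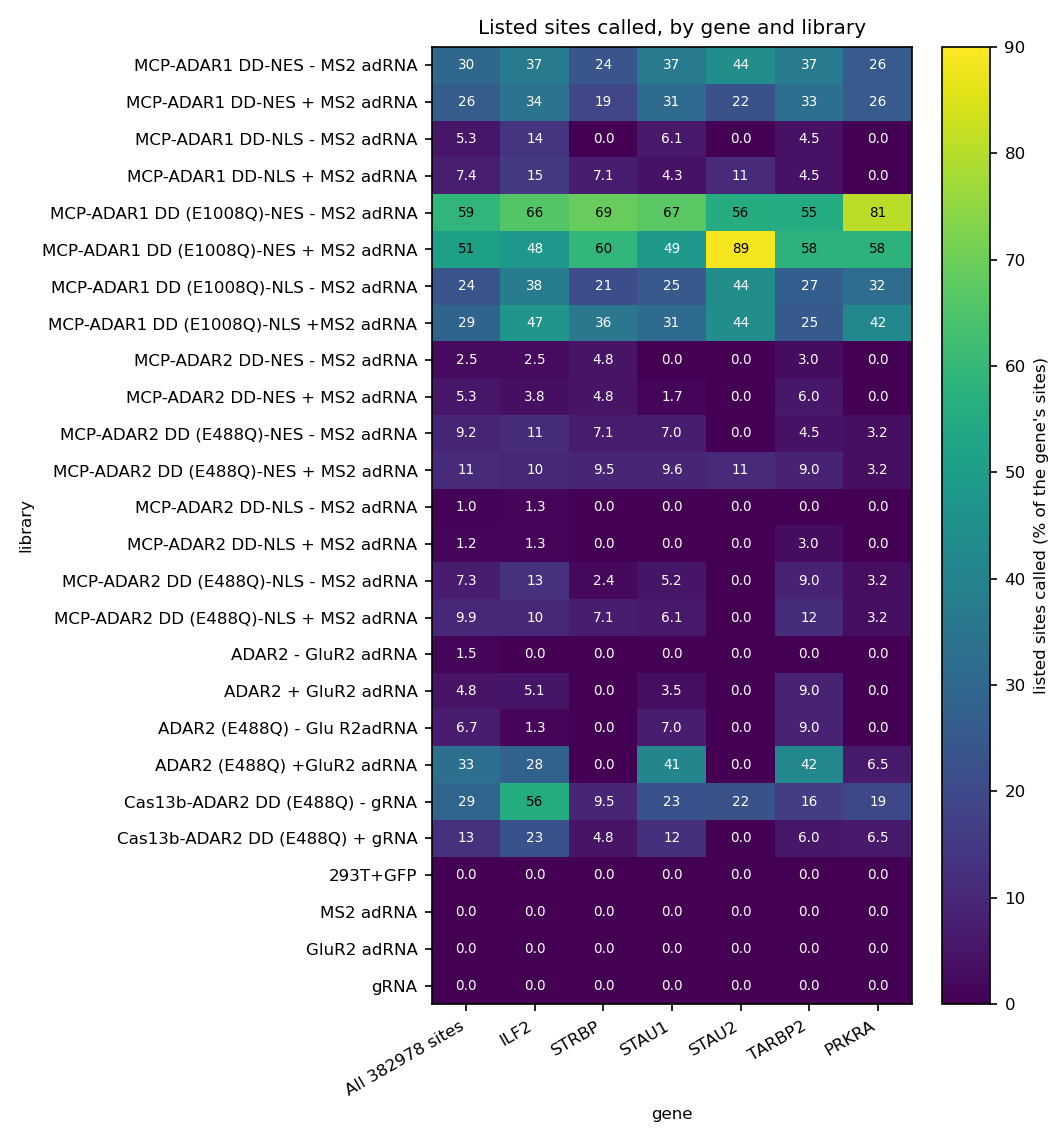
Percent of each gene's listed sites called (number and color) in each of the 22 deaminase libraries and 4 controls (rows), for all listed sites and for the 6 genes (columns). Exported MCP-ADAR1 E1008Q is the brightest pair of rows, the controls are at 0, and STRBP and STAU2 are at 0 in all 4 full-length ADAR2 rows.

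The mean share over a gene's listed sites, averaged over the 22 libraries, was highest in STAU2 at 7.52% ± 9.15 (SD over libraries), then 4.85% ± 5.73 in PRKRA, 4.31% ± 3.01 in TARBP2, 3.72% ± 4.06 in STRBP, 2.79% ± 2.53 in STAU1 and 1.32% ± 0.878 in ILF2 (1.08% ± 0.895 without the codon 51 site). Neighbours in this order differed by less than the spread over libraries in each case: STAU2 exceeded PRKRA by 2.67 ± 3.77 percentage points and was higher in 17 of 22 libraries, and PRKRA exceeded TARBP2 by 0.542 ± 3.35 points and was higher in 11 of 22. Apart from TARBP2 and STRBP, which change places, this is also the order of the lowest called shares given above, and the part of read depth in it was not tested.

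The sites with the highest shares lay in TARBP2. At the 3′ UTR site (chr12:53506300) the share averaged 37.7% ± 14.0 (SD over 22 libraries). It was called in 20 of them, while every control and untransfected run was at 0%. In the 8 MCP-ADAR1 libraries it ran from 34.9% to 67.3% with a median of 49.5%, and in the 8 MCP-ADAR2 libraries from 15.4% to 35.6% with a median of 29.0%, so the groups overlap by a single library. Full-length ADAR2 reached 15.8% and 27.6% as wild type and 32.7% and 50% as E488Q, in each case without and with the GluR2 adRNA, and the Cas13b fusion reached 55.1% without and 27.5% with its gRNA. The synonymous A342A site near the end of the TARBP2 coding sequence averaged 20.3% ± 17.2 and separated the enzymes. It lay between 21.8% and 53.3% with a median of 38.8% in MCP-ADAR1 libraries and between 1.96% and 10.0% with a median of 3.62% in MCP-ADAR2 libraries, with no overlap. Full-length ADAR2 gave 7.32%, 18.8%, 11.3% and 27.1% there (wild type without and with, then E488Q without and with the GluR2 adRNA), of which 3 were above the highest MCP-ADAR2 library. Among the other sites of TARBP2, S299G averaged 16.4% and S18G, which is coding in the transcript TARBP2-201, 15.5%; both were named after their values were seen.

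In PRKRA the highest site was the synonymous K88K codon (chr2:178447558), at 13.7% ± 14.7. The 4 MCP-ADAR1 E1008Q libraries gave 57.4%, 47.4%, 26.6% and 21.9% (NES without and with guide, NLS without and with guide), the 4 wild-type ones 10.7%, 6.09%, 6.90% and 7.14% in the same order. With MCP-ADAR2 the E488Q libraries gave 13.6%, 14.6%, 17.2% and 13.3%, and the wild-type ones 3.41%, 4.17%, 2.27% and 1.77%. Every E-to-Q library therefore lay above every wild-type one, and within E-to-Q the NES and NLS libraries were separate for ADAR1 and overlapped for ADAR2. The 3′ UTR site of PRKRA (chr2:178431682) averaged 11.3% ± 15.9 and was called in 5 libraries. Its values with MCP-ADAR1 E1008Q were 42.6%, 55.1%, 29.2% and 32%, against 11.5%, 9.62%, 0% and 0% with the wild type.

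In STAU1 the highest sites were 1 in the 3′ UTR (chr20:49113721), at 20.1% ± 19.8, and the recoding site Y24C (chr20:49153963), at 15.2% ± 15.2. Y24C lay between 14.7% and 50.5% with a median of 23.9% in the 8 E-to-Q libraries and between 0% and 17.1% with a median of 2.13% in the 8 wild-type ones, and the ranges overlap slightly. At this site full-length ADAR2 was at 0% in 3 libraries and at 5.81% in E488Q with the GluR2 adRNA, whereas the Cas13b fusion reached 34.6% and 22.0%. The STAU1 site called in most libraries was I168M (chr20:49124468), in 16 of 22, at 12.5% ± 10.7.

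In STAU2 all 9 listed sites were coding. The highest were the synonymous Q389Q (chr8:73552279) at 14.7% ± 15.2 and the recoding K226E (chr8:73613863) at 13.3% ± 18.3. At K226E the 8 MCP-ADAR1 libraries ran from 7.69% to 56.1% with a median of 28.5%, and the 8 MCP-ADAR2 libraries from 0% to 10.4% with a median of 2.69%. The ranges overlap slightly.

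In STRBP and ILF2 the leading sites were coding. K651R of STRBP (chr9:123125664) averaged 17.0% ± 13.4 and was called in 15 libraries, and Y640C averaged 10.8% ± 13.7 and was called in 11. The most widely called site of ILF2, the synonymous L248L (chr1:153664043), averaged only 5.05% ± 3.93 but passed in 19 libraries. It was lowest in full-length wild-type ADAR2 without guide, at 0.106%, and highest in exported MCP-ADAR1 E1008Q without guide, at 14.0%.

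**Figure D3:**
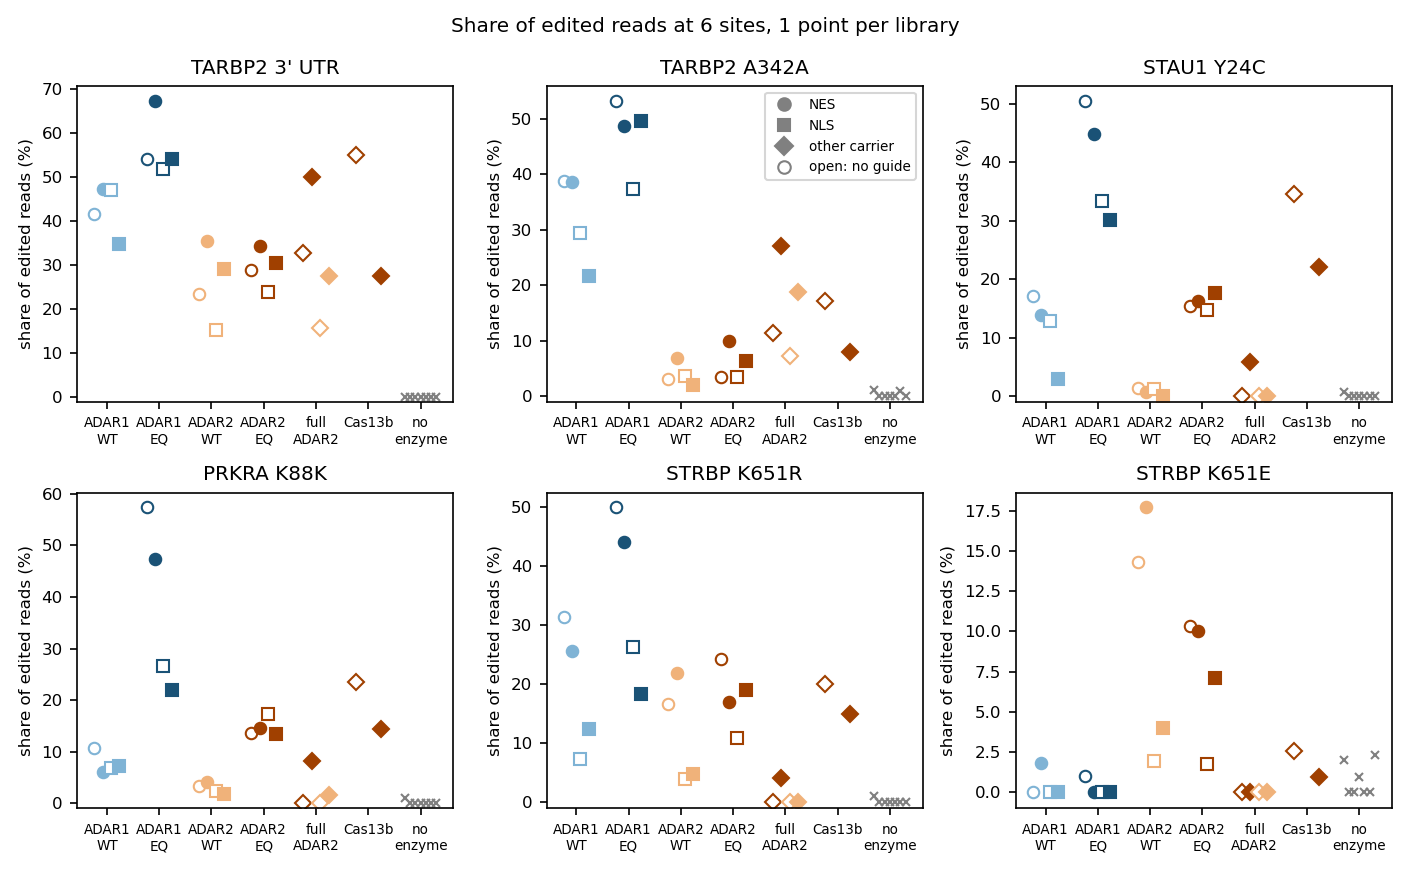
Share of edited reads (y axis, percent) at 6 sites, with 1 point per library, grouped by construct (x axis); circles are NES, squares NLS, diamonds full-length ADAR2 or Cas13b, open symbols have no guide, light colors are wild type, dark colors E-to-Q, and crosses are the controls and untransfected runs. STRBP K651R is above the controls in all 16 MCP libraries, while K651E in the same codon is above 2.0% in 6 libraries with ADAR2 and in the Cas13b library without gRNA, and in no library with ADAR1.

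The E-to-Q substitutions went with higher shares in all 6 genes. Tests were limma fits on arcsine square roots of the shares in the 16 MCP libraries, with the 4 factors as main effects, adjusted over all sites or over the 8636 genes with at least 5 listed sites. Among the sites, 126 of 343 (36.7%) rose with E-to-Q at an adjusted p under 0.05, against 39.7% of all sites, and 1 fell, against 0.72%. The risers were 40 in STAU1, 24 in TARBP2, 20 in ILF2, 20 in PRKRA, 19 in STRBP and 3 in STAU2. The site that fell was in the STAU1 3′ UTR (chr20:49114476), from 2.74% to 0.781%, and was named after its value was seen. The listing rule is not stated. If a site was listed once it passed in any library, a site seen only under the stronger form had to differ. Among the 158 sites that had also been called in a library outside the MCP fusions, 65 (41.1%) rose, against 45.6% of all such sites. Most calls outside came from E488Q libraries, at 15, 99, 93 and 40 sites, against 0 and 14 with wild-type ADAR2. This subset therefore does not remove a selection through the E-to-Q form. None of the 158 fell by the same limma test or at an unadjusted p under 0.05, against 0.421%.

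By gene, the mean share rose with E-to-Q in STAU2 from 5.81% to 13.3%, by 7.47 ± 6.33 points (SD over 8 pairs; limma adjusted p = 0.000508). In PRKRA it rose from 2.89% to 8.67%, by 5.78 ± 4.50 points (limma adjusted p = 0.000118). The rise was larger in STAU2 in points but not on the arcsine scale of the test, at 0.12 in both. It was smaller in the other 4 genes: STRBP rose by 3.93 ± 3.25 points, TARBP2 by 2.51 ± 1.54, STAU1 by 2.38 ± 1.5 and ILF2 by 0.747 ± 0.487 (limma adjusted p = 0.00269). Every gene was higher in 8 of 8 pairs, yet the 8 E-to-Q and 8 wild-type libraries overlapped in all 6. Each group holds both enzymes. Of all 8636 genes 93.7% rose as well, so the direction is that of nearly every message. The largest site-level rises past the threshold in all 8 pairs were at the STAU1 3′ UTR site (24.1 ± 15.0 points), STAU1 Y24C (21.6 ± 7.89) and PRKRA K88K (21.2 ± 14.5).

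The gain from E-to-Q was compared between the enzymes by an interaction term in the same fit. It was smaller with ADAR2 than with ADAR1 at 26 of 343 sites (7.58%), against 3.44% of all sites, and larger at 0, against 0.248%; at an unadjusted limma p under 0.05 the counts were 82 and 4. The 26 were 10 in STAU1, 6 in PRKRA, 4 in ILF2, 3 in STRBP and 3 in TARBP2. STAU2 had 0, and 4 at an unadjusted p under 0.05. By gene the limma interaction passed for 0 of 6, against 2.55% of all genes, and for 3 (PRKRA, STRBP and STAU2) at an unadjusted p under 0.05. The term was fitted on the arcsine scale, where a like proportional gain from a higher level counts as larger. Exported MCP-ADAR1 E1008Q also called the most sites, 225 without and 184 with the guide. If a site was listed once it passed in any library, sites seen only there favoured a smaller gain with ADAR2.

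**Figure D4:**
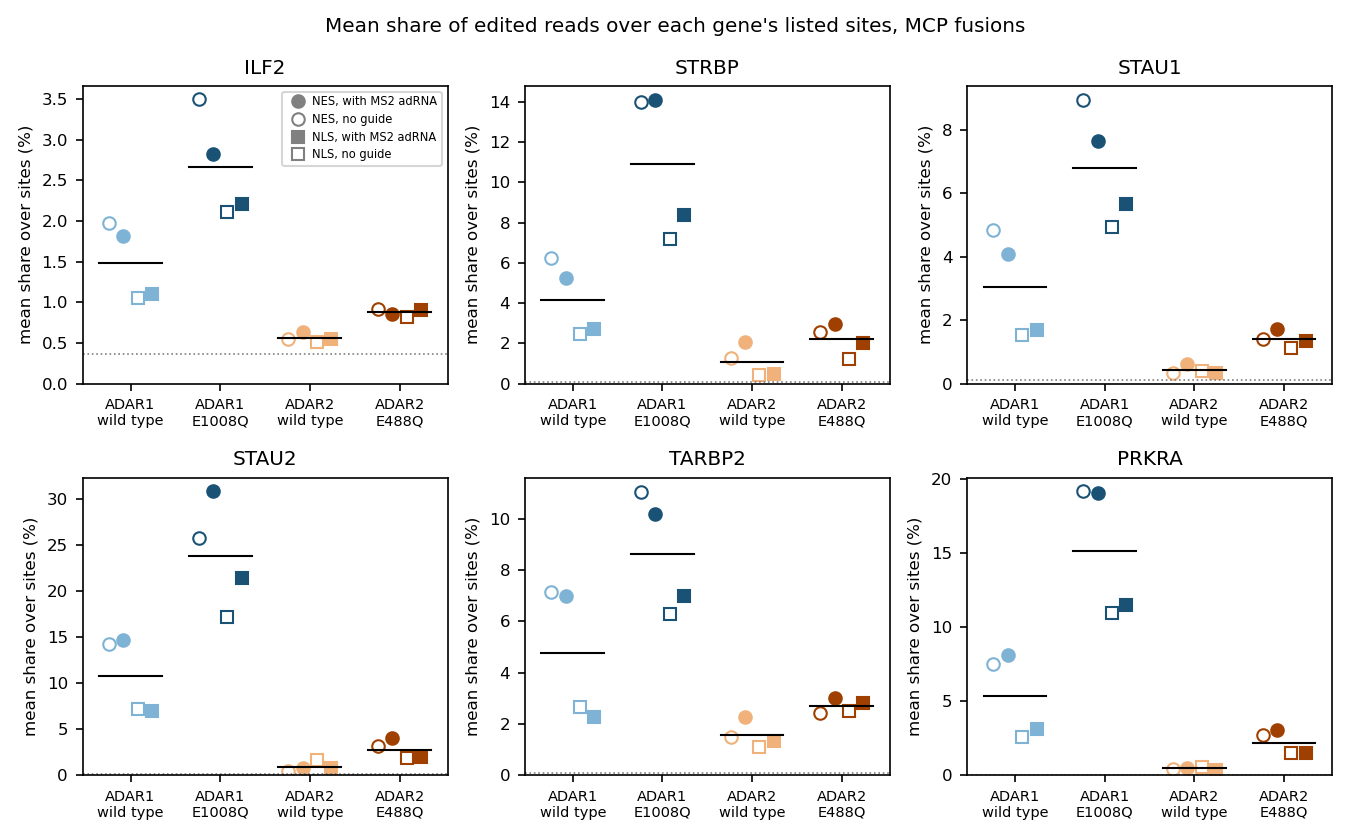
Mean share over the listed sites of each gene (y axis, percent, 1 panel per gene with its own scale) in the 16 MCP libraries, by enzyme and variant (x axis); circles are NES, squares NLS, filled symbols have the MS2 adRNA, black bars are means of 4 libraries and the dotted line is the untransfected mean. In all 6 panels ADAR1 E1008Q with the NES is highest, and the ADAR2 libraries lie low.

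Of the 4 factors, the enzyme had the most sites past the threshold. With the ADAR2 domain 255 of 343 sites (74.3%) were lower than with the ADAR1 domain, against 66% of all sites, and 4 were higher (1.17%), against 2.6%. Lower sites were 90 of 115 in STAU1, 48 of 79 in ILF2, 47 of 67 in TARBP2, 32 of 42 in STRBP, 29 of 31 in PRKRA and 9 of 9 in STAU2. Summed over the MCP libraries, calls at the 343 sites numbered 898 with ADAR1 and 127 with ADAR2. If a site was listed once it passed in any library, a site seen only with ADAR1 had to be lower with ADAR2. The full count may therefore reflect the listing in part. Among the 158 sites called outside the MCP fusions, all in libraries with an ADAR2 domain, 92 (58.2%) were still lower with MCP-ADAR2, against 50.6%, and 2 (1.27%) higher, against 3.71%. By gene the mean share fell in all 6, as in 98.7% of all genes. STAU2 went from 17.3% with ADAR1 to 1.79% with ADAR2, a difference of -15.5 ± 7.43 points (limma adjusted p = 6.98e-08), and its groups did not overlap. PRKRA went from 10.2% to 1.31% (limma adjusted p = 1.33e-07), STRBP from 7.55% to 1.63%, TARBP2 from 6.69% to 2.11%, STAU1 from 4.92% to 0.907% and ILF2 from 2.07% to 0.716%, and each was lower in 8 of 8 pairs. ILF2 was the other gene whose groups did not overlap. Without its codon 51 site, which averaged 20.6% over the deaminase libraries, ILF2 went from 1.84% to 0.452% (limma adjusted p = 2.12e-06). On the arcsine scale the estimates were -0.31 in STAU2 and -0.22 in PRKRA, beyond the median of all genes at -0.13, while ILF2 was at -0.056. Calls in the MCP libraries numbered 28 with ADAR1 and 1 with ADAR2 in STAU2, 82 and 4 in PRKRA, and 236 and 42 in ILF2. Listed sites of STAU2 and PRKRA may thus have entered through high ADAR1 values, so these estimates do not rank the genes by enzyme preference. The site with the largest fall was TARBP2 A342A, at -34.8 ± 9.47 points (limma adjusted p = 7.08e-07), followed by STAU2 K226E at -27.8 ± 18.6 and the STAU1 3′ UTR site at -27.3 ± 16.8.

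The lysine codon of K651R and K651E in STRBP held both directions in adjacent bases. Its second base gives arginine when edited (K651R) and its first base gives glutamate (K651E). At K651E the 8 MCP-ADAR1 libraries gave 0% in 6 and 1.03% and 1.82% in the other two, whereas MCP-ADAR2 gave 14.3% and 17.7% as exported wild type, 10.3% and 10.0% as exported E488Q, 1.96% and 4.00% as nuclear wild type and 1.72% and 7.08% as nuclear E488Q, each without and with guide. ADAR2 was higher in 8 of 8 pairs, by 8.03 ± 5.35 points (limma adjusted p = 2.42e-05), although the lowest ADAR2 library lay just below the highest ADAR1 library. The site was called in 4 libraries, and 1 untransfected run read 2.33% there and GFP 2.00%, so the lowest nuclear ADAR2 values lie within the range of the controls. At K651R, 1 base downstream, the same fit gave the opposite sign: 14.8% with ADAR2 and 27% with ADAR1, -12.2 ± 10.4 points (limma adjusted p = 0.00235), lower in 7 of 8 pairs. Whether the same reads carried both changes was not analysed here. Full-length ADAR2 gave 0% at K651E in all 4 libraries. The other 3 sites higher with ADAR2 were ILF2 R231G, at 2.62% against 1.12% (higher in 8 of 8 pairs, limma adjusted p = 0.00686, but 0.0839 with the NES libraries alone and 0.123 with the NLS libraries alone), ILF2 T313A, at 1.01% against 0.298%, and a STAU1 5′ UTR site (chr20:49188137), at 3.14% against 1.34%; T313A and the 5′ UTR site were named after their values were seen. The R231G adenosine follows a G, in the printed sequence above, and so does that of the STAU1 5′ UTR site.

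**Figure D5:**
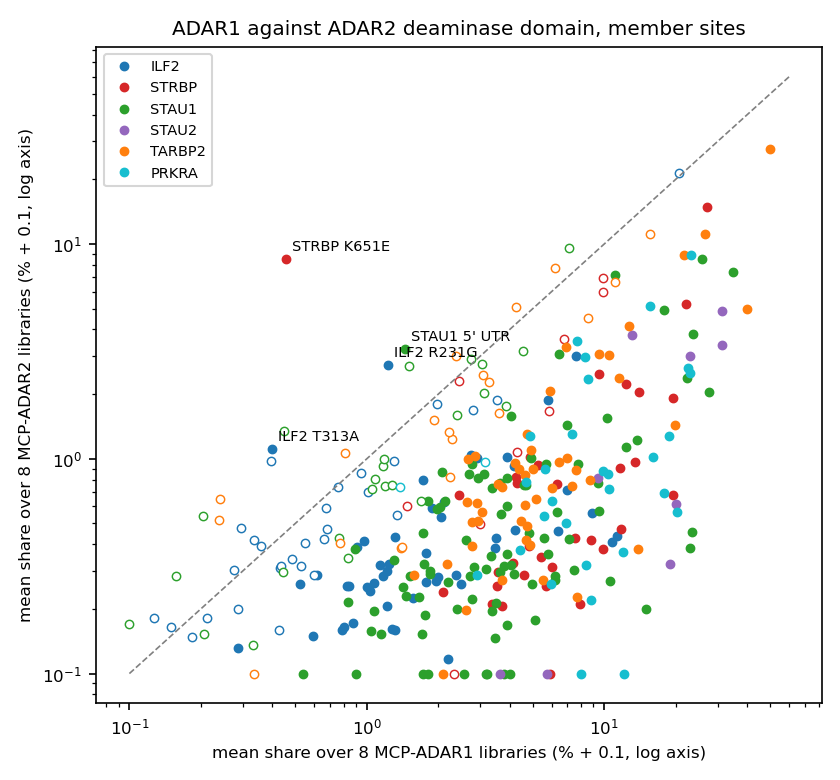
Mean share over the 8 MCP-ADAR2 libraries (y axis) against that over the 8 MCP-ADAR1 libraries (x axis) for the 343 sites, in percent plus 0.1 on log axes; color gives the gene, filled points passed the limma test and the dashed line marks equal shares. Most points lie below the line, and the 4 named points above it are those that were higher with ADAR2.

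Fewer sites passed for the localisation signal than for E-to-Q or the enzyme. The median difference over the 343 sites was -1.19 points for NLS against NES, 1.18 for E-to-Q and -2.88 for the enzyme. With the NLS 13 sites (3.79%) were lower than with the NES, against 3.76% of all sites, and 0 were higher, also at an unadjusted limma p under 0.05, against 0.0397%. They were 5 in STRBP, 4 in STAU1, 2 in PRKRA and 2 in TARBP2, while ILF2 and STAU2 had 0 (10 and 1 at an unadjusted limma p under 0.05). Of the 158 sites called outside the MCP fusions 8 (5.06%) were lower, against 4.93%. The count rests on the scale and on single libraries: it was 0 on untransformed shares and fell to between 2 and 7 when any 1 of 10 libraries was left out, namely each of the 8 with MCP-ADAR1 and, with the guide, exported and nuclear wild-type MCP-ADAR2. The sites past the threshold with a lower share in all 8 pairs and the largest differences were TARBP2 K60R (chr12:53503045), from 5.98% with the NES to 1.2% with the NLS (-4.78 ± 4.43 points, limma adjusted p = 0.0188), the PRKRA 5′ UTR site (chr2:178451055), from 7.63% to 3.38% (limma adjusted p = 0.0398), and STRBP Y647C (chr9:123128216), from 3.95% to 0.591% (limma adjusted p = 0.0323). All 3 lost the call on untransformed shares, the PRKRA site also without any 1 of 11 libraries and the STRBP site without any 1 of 8. K651R and K651E of STRBP were both among the 13, at 28.9% against 12.9% and 6.90% against 1.85%.

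By gene, the mean share was lower with the NLS in 5 of 6, against 83.5% of all genes. STRBP fell by 2.95 ± 2.28 points, from 6.07% to 3.11%, and was lower in 8 of 8 pairs (limma adjusted p = 0.00669). PRKRA, TARBP2 and STAU1 were lower in 7 of 8 pairs, by 3.55 ± 3.31, 2.33 ± 2.19 and 1.58 ± 1.57 points, and STAU2 in 6 of 8, by 4.37 ± 4.26 points (limma adjusted p = 0.0231, but 0.0607 without nuclear wild-type MCP-ADAR1 with guide and 0.0578 without exported MCP-ADAR1 E1008Q with guide). ILF2 was at 1.63% with the NES and 1.16% with the NLS, which missed the threshold (limma adjusted p = 0.0559) and passed, at 0.0344 to 0.0465, without any 1 of 4 libraries, exported MCP-ADAR2 E488Q and nuclear wild-type MCP-ADAR2, each without or with guide. Without the codon 51 site ILF2 was at 1.40% with the NES and 0.892% with the NLS and also passed (limma adjusted p = 0.0465). Whether ILF2 differs from the other 5 in this was not tested.

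The MS2 adRNA made no difference that passed the test. No site of the 6 genes passed by limma, against 0.000783% of all sites, and 8 did at an unadjusted p under 0.05, 5 higher and 3 lower with the guide. By gene 0 of 6 passed in limma, against 0% of all genes, and 0 at an unadjusted p under 0.05. The mean difference ran from -0.0701 ± 0.261 points in ILF2 to 1.22 ± 2.17 in STAU2. In every gene it was smaller than the spread over the 8 pairs.

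Calls by full-length ADAR2 were unevenly spread over the genes. In its E488Q form with the GluR2 adRNA, which called 32.7% of all sites, it called 28 of 67 sites in TARBP2 (41.8%), 47 of 115 in STAU1 (40.9%), 22 of 79 in ILF2 (27.8%), 2 of 31 in PRKRA and 0 in STRBP and STAU2. The mean shares in that library were 8.92% in TARBP2, 5.63% in STAU1, 3.71% in PRKRA, 1.80% in STAU2, 1.37% in ILF2 and 1.36% in STRBP. For TARBP2 and STAU1 this was above all 8 MCP-ADAR2 libraries, whose highest were 2.99% and 1.73%, and PRKRA and ILF2 also exceeded their highest, 3.02% and 0.920%. For STRBP and STAU2 it was below the highest MCP-ADAR2 library, at 2.97% and 3.98%. In the other 3 full-length libraries STRBP was at 0.179% or less and STAU2 at 0%, where the highest untransfected run read 0.165% and 0.258%. The Cas13b fusion without gRNA called 44 of 79 sites in ILF2 (55.7%, against 29.5% of all sites), yet the mean share of ILF2 in that library, 2.6%, was the lowest of the 6 genes, which ranged up to 7.55% in STAU2. It called 26 of 115 in STAU1, 11 of 67 in TARBP2, 6 of 31 in PRKRA, 4 of 42 in STRBP and 2 of 9 in STAU2. These are single libraries, so the differences between them have no replicate check, and the calls depend on a depth that is unknown for each gene.

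Pooled, the sites were followed by G about as often as the whole list and preceded by G less often, and the genes differed. Of the adenosine sites, 57.3% were followed by G, against 58.7% of all listed sites in exons of 1 gene, and 8.77% were preceded by G, against 12.1%. In the main transcripts themselves G followed between 23.7% (STRBP) and 38.5% (TARBP2) of the adenosines and preceded between 20.9% and 29.9%. Sites followed by G were 73.1% in TARBP2, 65.4% in ILF2, 52.2% in STAU1, 48.4% in PRKRA, 44.4% in STAU2 and 40.5% in STRBP, in each case above the transcript's own share. Sites preceded by G numbered 11 of 67 in TARBP2, 11 of 115 in STAU1, 7 of 78 in ILF2 and 1 of 31 in PRKRA, and 0 in STRBP and STAU2. The triplet TAG, as in L248L of ILF2 and I168M of STAU1, made up 10.5% of the sites of the group and 8.65% of all listed sites.

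Genes outside the group were read from the same fits. Among 10 other genes with double-stranded RNA binding or related zinc-finger domains (DHX9, EIF2AK2, DICER1, DROSHA, DGCR8, ZFR, CDKN2AIP, SON, NKRF and MRPL44), 10 rose with E-to-Q, 10 fell with ADAR2 and 7 fell with the NLS, where 93.7%, 98.7% and 83.5% of all genes did so. Of 5 partners in small RNA pathways, translation and decay (AGO1, AGO2, UPF1, XPO5 and EIF2S1), 5 rose with E-to-Q, 5 fell with ADAR2 and 4 fell with the NLS. No gene of either list passed for the guide. The median enzyme estimate on the arcsine scale was -0.14 in the 6 genes, -0.11 in the 10, -0.10 in the 5 and -0.13 over all genes, so the group's median lies near that of the whole table. Over the 22 libraries the gene whose mean shares most resembled those of TARBP2 was ARIH2 (Pearson r = 0.989 over 22 libraries), followed by RRAGA (0.988) and CDK11B (0.987). For PRKRA they were MRPL18, PRNP and RBM17, for STAU1 SRP72, KMT5A and GRB2, for STAU2 VRK1, POMP and PLS3, for STRBP USO1, HSP90B1 and PDIA6, and for ILF2 SUPV3L1, NVL and AC092809.4, all at r between 0.990 and 0.994. The median r with all genes was between 0.84 and 0.91 for each member, since all genes share the same libraries, so these values describe a common pattern.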

How the data were processed

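Libraries of poly(A) RNA from HEK 293T cells used 300 ng of RNA and paired reads of 100 bp, as the protocols in the labels state. For the upstream steps GRCh38.p12, STAR 2.6.0c, SAMtools and bcl2fastq 2.18.0.12 are listed in the submitters' processing notes, with no roles or settings. The authors deposited the fraction of edited reads per site and sample (share, printed here in percent), and the authors' deposited adjusted p-values for the same sites. Neither the test behind these p-values nor the selection of sites is given in the sources used here. The share table had 1 column of per-sample values that could not be matched to a sample and was not used. The baseline was 3 untransfected runs, and no column was matched to the remaining untransfected run. The read depth of the samples is unknown, no counting interval is given, and PCR reads without molecular identifiers would not be independent molecules.

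Sites were matched to GENCODE release 29 exons at 1-based positions. Codon changes refer to 1 main transcript per gene, or to another coding transcript where the site is absent from it. Tests used limma 3.58.1 (R 4.3.3) with an intensity trend on arcsine square roots of shares in the 16 MCP libraries, 4 main effects, 11 residual degrees of freedom and Benjamini-Hochberg adjustment per factor over all sites or genes at 0.05. Gene values are means over listed sites. The spread comes from interactions and from noise between single libraries, so p-values describe this set of constructs. The site fit was tested on simulated data for the guide comparison over 382978 sites, of which 200 were changed: 42% of those changed by 0.2 on the arcsine scale were recovered and 100% of those changed by 0.4, 0.8 or 1.2, with 11 false calls. The simulated noise was normal with the same SD at every site, without effects of the other factors and without a lower bound on the share. These rates therefore do not carry over to the real shares. Python 3.11.15 with numpy 2.4.6, pandas 2.3.3 and matplotlib 3.10.9 did the rest.

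Named sites were the 2 with the highest mean share and the most widely called in each gene, up to 3 per factor and direction past the threshold with 1 sign in 8 of 8 pairs, start or stop codon sites called anywhere, and sites with an untransfected share of at least 5%. Others are marked where they were chosen after their values were seen or belong to a count. The 6 genes, the lists and the tests were chosen with earlier results of these data known, and 1 gene of the lists is not reported here. Alternatives changed the scale, trend, filters, thresholds and libraries.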

Additional observations from a re-analysis of the deposited data

Results flagged for a closer look

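The gain from E-to-Q differed between the enzymes at the PRKRA 3′ UTR site (chr2:178431682), the 1 named site where the test of the difference itself passed. It was 34.4 points with MCP-ADAR1 and 4.05 points with MCP-ADAR2, and the interaction term was -0.40 on the arcsine scale (limma adjusted p = 0.047). Only 5 of the 22 deaminase libraries called this site, and 9 of the 22 read 0% there. The site was named for its high mean share, which its MCP-ADAR1 E1008Q values raise. The interaction test is therefore not independent of that choice. For the mean share of PRKRA as a gene the interaction did not pass (limma adjusted p = 0.0586).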

How the results depend on the processing

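All counts of changed genes kept their value under every alternative except localisation, where leaving out 1 library moved the 5 of 6 to between 4 and 6, and leaving the codon 51 site out of the ILF2 mean, chosen after seeing the data, gave 6. Counts of changed sites ran from 103 to 145 for the variant, 2 to 18 for localisation, 0 to 0 for the guide and 244 to 261 for the enzyme when 1 library was left out. With the 8 NES libraries alone 42 sites changed by variant and 227 by enzyme, and with the 8 NLS libraries alone 46 and 84; the cause was not tested. Localisation changed 0 sites on untransformed shares and 22 with the enzyme by variant interaction in the fit; the cause was not tested. Among sites called outside the MCP design, an alternative chosen after seeing the data that keeps fewer sites, 65 changed by variant, 8 by localisation and 94 by enzyme. Widely called sites numbered 14 to 27 under other call rules. The guide estimate by gene (arcsine scale), which never passed, changed sign in 16 fits: to -0.00716 for STAU2 with the median over sites, and otherwise when 1 library was left out, where it ran from -0.0037 to 0.00254 in ILF2, -0.00515 to 0.00818 in STAU1, -0.00317 to 0.0284 in STAU2, -0.00342 to 0.0134 in TARBP2 and -0.0017 to 0.0249 in PRKRA. Of the other values for single sites and genes, 684 kept direction and side of the threshold, 26 lost the call and 5 gained it. Each deaminase condition was 1 library, so replicates could not be paired. The pairs used here are libraries that differ in 1 factor. Depth, which is unknown, limits which low shares could be called in each gene, and its part was not tested.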
